A study of Mus musculus with 36 samples.

Results

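The nuclear genes for the first part of the mitochondrial respiratory chain, complexes I, II and III, were compared between 3 kinds of cells sorted from mouse skeletal muscle. Of the 52636 genes in the count table, 59 were taken by name: protein-coding genes whose mouse symbol begins with Nduf or Uqcr, together with Sdha, Sdhb, Sdhc, Sdhd and Cyc1. The rule used symbols and no measured value, but it was set with earlier results of these data known. The 59 genes comprise 7 core subunits of complex I, 29 other subunits of complex I, 8 assembly factors of complex I whose symbols begin with Ndufaf, the paralogs Ndufa4 and Ndufa4l2, 4 subunits of complex II and 9 subunits of complex III. They lie on 17 chromosomes, and 58 of them passed the filter on low counts.

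All cells came from S100β-GFP;NG2-dsRed transgenic mice, in which the S100b promoter drives GFP and the promoter of Cspg4, the gene for NG2, drives dsRed. FACS separated cells carrying both colours (PSCs, the perisynaptic Schwann cells of the neuromuscular junction), cells with GFP alone (S100β-GFP+ Schwann cells) and cells with dsRed alone (NG2-dsRed+ cells, which include pericytes), so each group is defined by reporter fluorescence and the controls carry both transgenes too. The labels give mice from P15 to an upper age that is 21 days for library 1, rises by 1 day with each library number to 46 and stays there from library 26, so it may not be the true age, and the methods of the study give P15 to P21. By those methods each replicate came from 1 mouse. The labels name 12 libraries per cell type. Of these 36 libraries 27 were analysed here, 9 of PSCs, 8 of S100β-GFP+ and 10 of NG2-dsRed+ cells. The study's text gives fewer S100β-GFP+ libraries after removal of failed ones, so 1 of the 8 may be a library that its authors left out. Whether libraries of different cell types came from the same mouse is not said, and p-values measure the spread between libraries.

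Complex I oxidizes NADH and passes the electrons to ubiquinone, complex II does the same with succinate as a step of the citric acid cycle, and complex III passes them on to cytochrome c, with complexes I and III pumping protons across the inner mitochondrial membrane. The core subunits of complex I hold the flavin and the iron-sulfur clusters, and a part of its core is encoded in mitochondrial DNA. The many other subunits are small proteins that surround the core, and assembly factors help to build the complex without staying in it.

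Library totals ran from 5221655 to 9592875 counts on genes, and levels are given as CPM, the count of a gene scaled to a common library size with TMM factors. The sorted cells were checked against marker genes by the summed level of each list, from lowest to highest library. Of 6 Schwann cell markers, all were detected in every PSC library (2516 to 3207 CPM) and in every S100β-GFP+ library (649 to 1960 CPM). The 4 fibroblast markers reached 9185 to 19928 CPM and the 4 macrophage markers 195 to 1238 CPM in S100β-GFP+ libraries, against 417 to 1737 and 1.04 to 6.63 CPM in PSCs and 1236 to 11958 and 4.24 to 8.97 CPM in NG2-dsRed+ libraries, so the S100β-GFP+ libraries also held RNA of other cell types. S100β-GFP+ libraries 14, 17 and 22 had the most endothelial marker RNA of their group (433 to 1620 CPM, against up to 85.5 CPM in the other 5) and erythroid marker RNA of 16967 to 103787 CPM, which library 3 also had (19050 CPM). Endothelial markers reached 1008 to 2255 CPM in NG2-dsRed+ libraries and 71.7 to 378 CPM in PSCs, so NG2-dsRed+ libraries held RNA of other cell types too. In NG2-dsRed+ libraries Schwann cell markers summed to 71.9 to 446 CPM and pericyte and smooth muscle markers to 6794 to 14707 CPM. Markers of 10 muscle fibre genes summed to 166 to 1321 CPM in PSCs, 173 to 530 CPM in S100β-GFP+ and 139 to 578 CPM in NG2-dsRed+ libraries, highest in PSC library 18. In such bulk libraries a lower content of one cell type and less RNA per cell cannot be told apart. The part of these other cell types in the differences below was not tested.

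Of the 59 genes, 48 have an entry in a RefSeq promoter table (GRCm38.p6), which covers 250 bases before to 50 bases after the start of transcription. Exact matches on either strand to 4 motifs of factors that act on respiratory genes were counted in these windows. The NRF1 motif, the letters in capitals in Ndufaf4 below, was present in 4 of the 48 (8.33%), against 1.07% of the 27025 genes in the table, in Ndufa11, Ndufaf4, Ndufaf5 and Uqcrc1. The ETS motif CCGGAAG, bound by GABP among others, was present in 10 (20.8%, against 9.93%), the YY1 motif in 5 (10.4%, against 0.755%) and the ERR motif TCAAGGTCA in Sdhd alone (2.08%, against 0.466%). The 5 YY1 matches, in Ndufa9, Ndufaf8, Ndufs4, Ndufs6 and Ndufs7, all began 11 to 36 bases after the start. Below are the 250 bases before the start for 3 genes whose RNA levels behaved differently (Ndufaf4 and Uqcr11 were higher in PSCs than S100β-GFP+ cells and Sdhd was lower), with the NRF1 match of Ndufaf4 and the ETS matches of Sdhd and Uqcr11 in capitals.
Ndufaf4 (chr4:24897833-24898082, plus strand): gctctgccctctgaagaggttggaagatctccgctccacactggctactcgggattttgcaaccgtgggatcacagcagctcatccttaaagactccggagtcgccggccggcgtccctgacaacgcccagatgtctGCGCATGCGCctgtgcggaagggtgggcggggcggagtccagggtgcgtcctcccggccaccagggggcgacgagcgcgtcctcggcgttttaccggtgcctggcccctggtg
Sdhd (chr9:50603850-50604099, minus strand): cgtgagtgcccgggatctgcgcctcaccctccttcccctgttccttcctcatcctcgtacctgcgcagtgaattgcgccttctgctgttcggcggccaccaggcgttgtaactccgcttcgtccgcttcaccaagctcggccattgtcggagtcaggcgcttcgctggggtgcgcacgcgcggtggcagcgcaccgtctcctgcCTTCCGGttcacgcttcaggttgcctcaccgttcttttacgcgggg
Uqcr11 (chr10:80406822-80407071, minus strand): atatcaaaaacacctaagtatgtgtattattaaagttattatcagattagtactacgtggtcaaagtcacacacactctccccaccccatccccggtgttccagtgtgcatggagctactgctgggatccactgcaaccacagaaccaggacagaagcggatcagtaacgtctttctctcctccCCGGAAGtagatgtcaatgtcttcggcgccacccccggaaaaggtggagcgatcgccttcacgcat
The NRF1 match of Ndufaf4 began 113 bases before the start, and the ETS matches of Sdhd and Uqcr11 began 46 and 66 bases before it. Of the 10 genes with an ETS match, 7 were higher in PSCs than S100β-GFP+ cells, beside 36 of the 58 genes tested. Sdhd was lower, Sdhb did not pass the test and Ndufs3 was not tested. The matches of Ndufs8 and Sdhb began 16 and 7 bases after the start. The part of the motif in these differences was not tested.

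Of the 58 genes tested, 36 were higher and 2 were lower in PSCs, where 22.9% of all 15330 genes tested were higher and 24.1% lower (edgeR quasi-likelihood test, Benjamini-Hochberg adjusted p under 0.05). The median log2 fold change of the 58 was 0.68, beside 0.04 over all genes tested, and 19 of the 36 were higher by at least 2-fold, beside 13.0% of all genes. No gene had every PSC library below every S100β-GFP+ library, beside 10.3% of all genes. By role, 22 of 29 other subunits of complex I were higher, as were 5 of 8 assembly factors, 5 of 9 complex III genes, 3 of the 6 core subunits tested and Ndufa4. In complex II 0 genes were higher in edgeR, at an unadjusted p under 0.05 and in DESeq2. Without S100β-GFP+ libraries 14, 17 and 22, 14 genes were higher and 2 lower. The 22.9% of all genes that were higher comes from the fit of all 27 libraries, so it is no matching baseline for these 14 of 58. Without PSC libraries 18 and 36, left out after seeing the data, 23 were higher and 4 lower. With the share of Lars2, Gm23935 and Gm15564 as a term, described below, 9 were higher and 5 lower, with 2 of 29 other subunits of complex I and 1 of 9 complex III genes still higher. The limma-voom fit called 22 higher and 4 lower, among the higher 12 of 29 other subunits, 3 of 8 assembly factors and 3 of 9 complex III genes. The shares of all genes called by limma-voom and in the fits with libraries left out are not given here.

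Among the core subunits of complex I, Ndufs8, which binds iron-sulfur clusters, ranged from 63.8 to 175 CPM with a median of 82.2 in PSCs and from 38.5 to 62.6 CPM with a median of 47.0 in S100β-GFP+ libraries. It was the only one of the 58 genes for which every PSC library lay above every S100β-GFP+ library (5.24% of all genes did so), with a log2 fold change of 0.87 (SE 0.16, adjusted p = 6.63e-05 in edgeR). Ndufv1, which binds NADH and the flavin, ranged from 50.6 to 120 CPM in PSCs (median 77.2), against 45.8 to 54.7 CPM (median 49.4) in S100β-GFP+ libraries. The lowest PSC library alone fell among the S100β-GFP+ libraries, and the log2 fold change was 0.67 (SE 0.12, adjusted p = 3.92e-05 in edgeR). Its partner Ndufv2, at medians of 91.3 and 67.7 CPM, was higher by 0.42 on the log2 scale (SE 0.13, adjusted p = 0.00865 in edgeR). Ndufs1 and Ndufs7, which bind iron-sulfur clusters too, had log2 fold changes of 0.16 and 0.34 and did not pass the test. Ndufs3 had mean levels of 0.252 CPM in PSCs, 0.0173 CPM in S100β-GFP+ and 0.202 CPM in NG2-dsRed+ libraries and was not tested. It shares exonic sequence with Kbtbd4 on the opposite strand, and the sources used here do not say whether counting used strand.

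The largest increases were in small subunits. Uqcr11, a small subunit of complex III, ranged from 60.2 to 1519 CPM with a median of 290.5 in PSCs, and from 50.2 to 236 CPM with a median of 73.9 in S100β-GFP+ libraries. Of the 9 PSC libraries 5 lay above every S100β-GFP+ library and the other 4 within their range, for a log2 fold change of 1.91 (SE 0.56, adjusted p = 0.00591 in edgeR). Next to it stood Ndufc1 (log2 fold change 1.86), Ndufb2 (1.81), Uqcr10 (1.80) and Uqcrq (1.62), small subunits of complexes I and III, each with PSC libraries on both sides of the S100β-GFP+ maximum. Ndufc1, for example, ranged between 19.7 and 703 CPM in PSCs, with a median of 145, and from 22.2 to 123 CPM (median 37.6) in S100β-GFP+ libraries. Counts of Ndufb2 are uncertain, since it shares exonic sequence with Gm42420 on the same strand, as Ndufb8 does with Gm20538, and 19 of the 59 genes share some with a gene on the opposite strand.

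Among the larger subunits of complex III, Cyc1, cytochrome c1, ranged from 57.96 to 142 CPM in PSCs, with a median of 69.0, and from 48.3 to 67.4 CPM (median 58.3) in S100β-GFP+ libraries, a log2 fold change of 0.36 (SE 0.15) with an adjusted p of 0.0483 in edgeR, close to the threshold. Uqcrfs1, the Rieske iron-sulfur protein, had medians of 56.5 and 78.6 CPM and a log2 fold change of -0.22 that did not pass the test. The core proteins Uqcrc1 and Uqcrc2 did not pass it either (-0.12 and -0.28). Uqcrc1 had a mean of only 2.00 CPM in PSCs, 2.14 CPM in S100β-GFP+ and 3.36 CPM in NG2-dsRed+ libraries. In GENCODE M21 its exons overlap no other gene of the count table. The annotation used for counting is not stated, so the cause of this low level is not known.

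Complex II is the only one of the 3 without subunits from mitochondrial DNA, and 1 of its 4 genes was called. Sdhd, 1 of its 2 membrane anchors, ranged from 29.1 to 86.7 CPM with a median of 34.0 in PSCs and from 55.6 to 97.8 CPM with a median of 67.9 in S100β-GFP+ libraries. Of the PSC libraries 7 lay below every S100β-GFP+ library, and Sdhd was lower by a log2 fold change of -0.75 (SE 0.20, adjusted p = 0.00301 in edgeR). The other anchor Sdhc (0.15), the flavoprotein Sdha (0.14) and the iron-sulfur protein Sdhb (-0.38, adjusted p = 0.0588 in edgeR) did not pass the test.

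**Figure D1:**
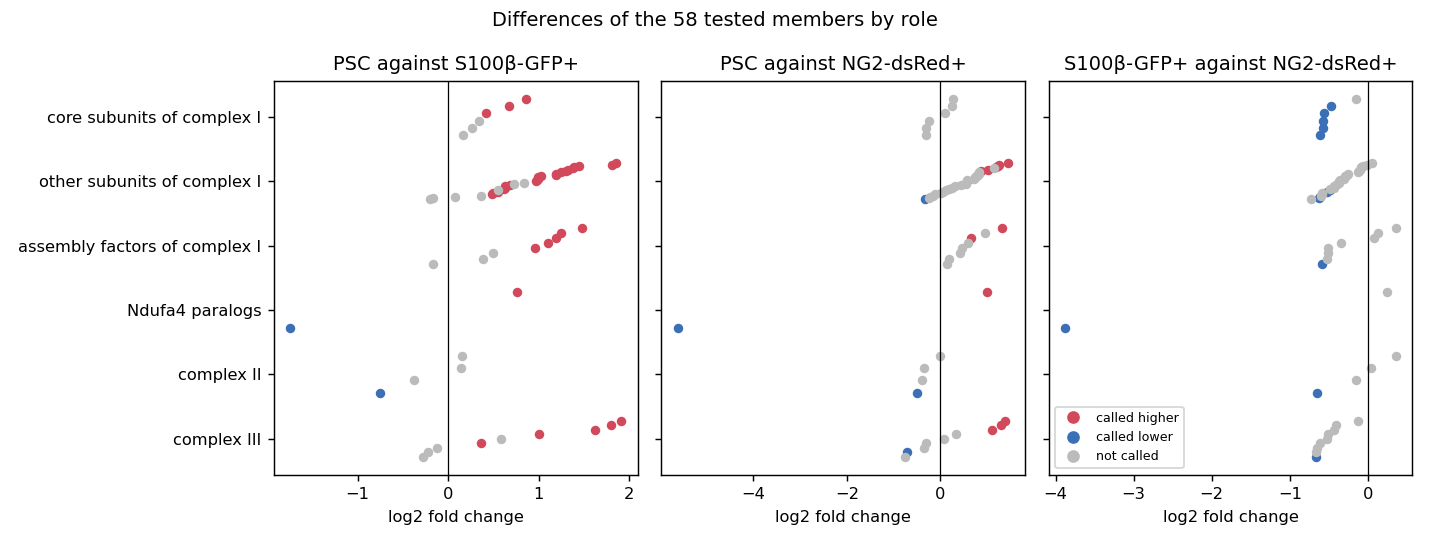
Log2 fold changes of the 58 tested genes (x axis) by role (rows) for each pair of cell types, each point 1 gene, red where called higher in the first cell type, blue where called lower and grey where not called. Against S100β-GFP+ cells 36 points are red and 2 blue, against NG2-dsRed+ cells 13 and 4, and between S100β-GFP+ and NG2-dsRed+ cells 0 and 13.

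Against NG2-dsRed+ cells, 41 of the 58 genes did not pass the test. Of the 58, 13 were higher and 4 lower, where 20.9% of all genes tested were higher and 23.1% lower, and the median log2 fold change was 0.33 beside 0.02 over all genes. The share of the 58 called higher (22.4%) was thus near that of all genes in edgeR at the adjusted threshold. At an unadjusted p under 0.05 edgeR gave 22 higher and 8 lower. DESeq2 called 11 of 29 other subunits of complex I higher and 0 lower, against 7 and 1 in edgeR. The shares of all genes by these other rules are not given here. The 13 were the same 13 that were higher in PSCs than in each of the other cell types, a pattern that 13.95% of all genes tested had, and since both comparisons use the same PSC libraries they do not support each other. Of the 13, 7 were other subunits of complex I, 3 belonged to complex III, 2 were assembly factors and 1 was Ndufa4.

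Ndufc1 showed the largest increase (log2 fold change 1.46, SE 0.50), from 31.5 to 182 CPM with a median of 65.4 in NG2-dsRed+ libraries, and it was followed by Uqcr10 (1.39), the assembly factor Ndufaf8 (1.33), Uqcr11 (1.30) and Ndufa1 (1.26). For Ndufc1, 4 PSC libraries lay above every NG2-dsRed+ library and 2 lay below all of them. Ndufaf8 ranged from 8.15 to 114 CPM (median 30.5) in PSCs and from 9.01 to 33.8 CPM (median 12.6) in NG2-dsRed+ libraries.

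The genes lower in PSCs were Ndufa4l2, described below, Uqcrc2 (log2 fold change -0.71, SE 0.21, adjusted p = 0.00781 in edgeR), Sdhc (-0.50, SE 0.13, adjusted p = 0.00194 in edgeR) and Ndufa9 (-0.33, SE 0.13, adjusted p = 0.0415 in edgeR), a subunit at the joint of the 2 arms of complex I. Sdhc ranged from 44.0 to 71.3 CPM with a median of 48.9 in PSCs and from 55.3 to 85.6 CPM with a median of 76.4 in NG2-dsRed+ libraries, and 7 of the 9 PSC libraries lay below every NG2-dsRed+ library. All 4 complex II genes had negative log2 fold changes, from -0.50 to -0.01. The 6 core subunits of complex I had log2 fold changes from -0.31 to 0.27, 3 of them positive, and 0 passed the test in edgeR, where 1 was higher and 2 lower at an unadjusted p under 0.05. DESeq2 called 1 higher and 0 lower, and limma-voom called 1 higher and 3 lower. The counts over the 58 rested on single libraries. With the share term 2 were higher and 9 lower, and limma-voom called 17 higher and 13 lower. Without PSC library 36 only 8 genes were called (5 higher, 3 lower), without PSC library 18 there were 32 (20 higher, 12 lower), and without both, 4 were higher and 12 lower. Leaving out PSC library 6 gave 27 calls, NG2-dsRed+ library 28 gave 26, and NG2-dsRed+ library 7 or 9 gave 11. For limma-voom and the fits with libraries left out, the shares of all genes called are not given here.

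Between S100β-GFP+ and NG2-dsRed+ cells, 45 of the 58 genes did not pass the test. Of the 58, 13 were lower, beside 15.2% of all genes tested, and 0 were higher, beside 18.1%, so that 22.4% of the 58 were called in either direction beside 33.3% of all genes. Of the 13, 1 (Ndufa4l2) was lower by at least 2-fold, beside 8.82% of all genes. With an unadjusted p under 0.05 in edgeR, 1 was higher and 16 lower, and DESeq2 called 1 higher and 12 lower. The median log2 fold change was -0.42, beside -0.02 over all genes, and 51 of the 58 log2 fold changes were negative. Of the 6 core subunits tested 5 were lower (by log2 fold changes of -0.62 to -0.47, among them Ndufs8 and Ndufv1), against 4 of 29 other subunits, 1 of 8 assembly factors, 1 of 4 complex II and 1 of 9 complex III genes.

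Cyc1 ranged from 48.3 to 67.4 CPM in S100β-GFP+ libraries and from 68.2 to 109 CPM with a median of 97.2 in NG2-dsRed+ libraries, without overlap (log2 fold change -0.67, SE 0.15, adjusted p = 0.000577 in edgeR). Every S100β-GFP+ library lay below every NG2-dsRed+ library for 5 of the 58 genes (Cyc1, Ndufs8, Ndufv1, Ndufab1 and Ndufa4l2), beside 4.38% of all genes, and for 0 of them was the order the opposite, beside 7.21%. Sdhc (-0.65) and Ndufc2 (-0.62), a membrane subunit of complex I, were also among the largest differences. Without S100β-GFP+ libraries 14, 17 and 22, 9 genes were lower, and with the PSC libraries left out of the fit 23 were lower and 0 higher. The shares of all genes called in these smaller fits are not given here.

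**Figure D2:**
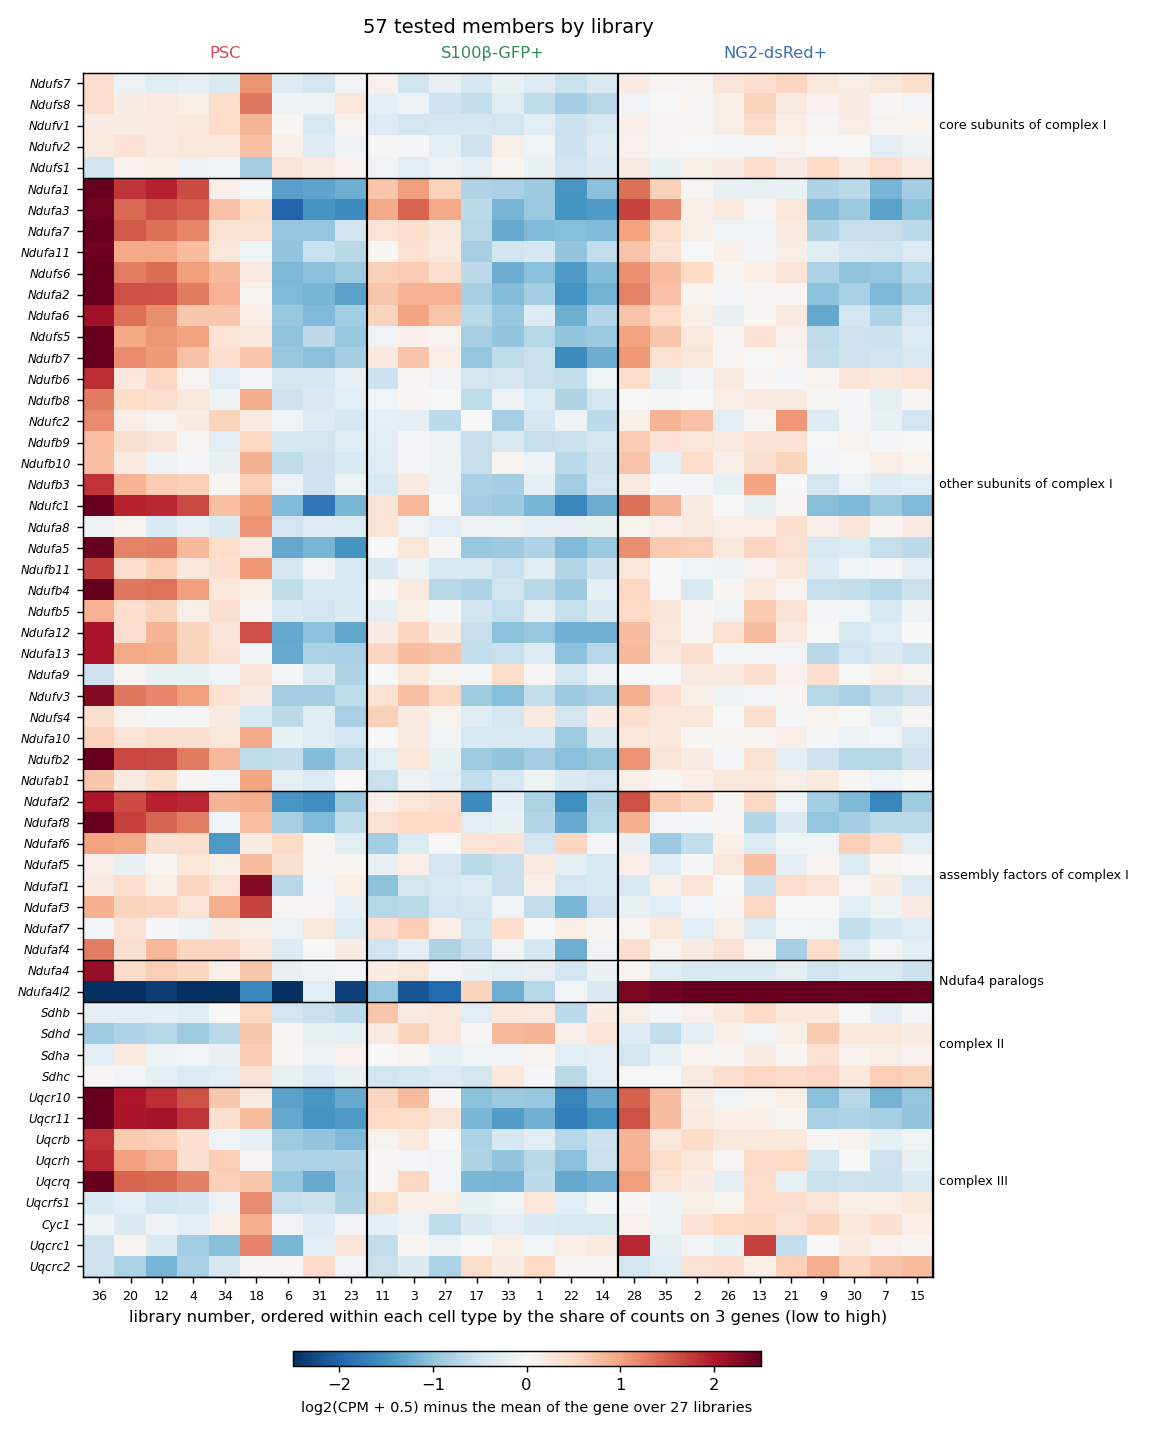
Levels of 57 of the 58 tested genes (rows, by role and within a role from short to long transcripts) in the 27 libraries (columns, within a cell type from the lowest to the highest share of Lars2, Gm23935 and Gm15564 among all counts), as log2(CPM + 0.5) minus the mean of each gene, red above and blue below. PSC library 36, with a share of 3.64%, holds the highest PSC level of 34 of the 58 genes, and PSC library 18 that of 20.

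Levels varied widely among the PSC libraries. The 59 genes together took 2530 to 16249 CPM (median 5701) in PSCs, 2191 to 5104 CPM (median 2872) in S100β-GFP+ and 3318 to 6707 CPM (median 4429) in NG2-dsRed+ libraries. PSC library 36 held the highest sum, and PSC libraries 6, 23 and 31, at 2530 to 2631 CPM, lay below every NG2-dsRed+ library. The spread was not even across roles. The median coefficient of variation between PSC libraries was 78.2% for other subunits of complex I and 76.4% for complex III, but 25.8% for core subunits and 24.3% for complex II.

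The summed level fell as the share of counts on 3 abundant genes rose: Lars2, which encodes a mitochondrial aminoacyl-tRNA synthetase, and the gene models Gm23935 and Gm15564. This share had a median of 17.8% in PSCs (3.64% to 36.6%), 32.6% in S100β-GFP+ (19.5% to 39.1%) and 30.4% in NG2-dsRed+ libraries (12.5% to 40.0%). The 3 genes were grouped here as a possible marker of ribosomal RNA reads in a library, not for the enzyme that Lars2 encodes. Whether their counts are such reads was not tested. Across the 9 PSC libraries Pearson's r of the share with the log2 summed level was -0.91 (exact permutation p = 0.000411, adjusted p = 0.00123) and Spearman's rho -0.93 (exact permutation p = 0.00075, adjusted p = 0.0015). Across the 8 S100β-GFP+ libraries r was -0.93 (exact permutation p = 0.00451, adjusted p = 0.00618) and rho -0.86 (exact permutation p = 0.0107, adjusted p = 0.0107). Across the 10 NG2-dsRed+ libraries r was -0.91 (permutation p = 0.00034, adjusted p = 0.00123) and rho -0.83 (permutation p = 0.00515, adjusted p = 0.00618). Adjustment was over these 6 two-sided tests. Without the 2 libraries farthest from the median share r was -0.88, -0.89 and -0.77. Both measures come from the counts of the same library and share its total. The permutation p-values assume independence, which such measures need not have. The same correlation was not computed for other genes, so it is not shown to be particular to the respiratory genes.

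**Figure D3:**
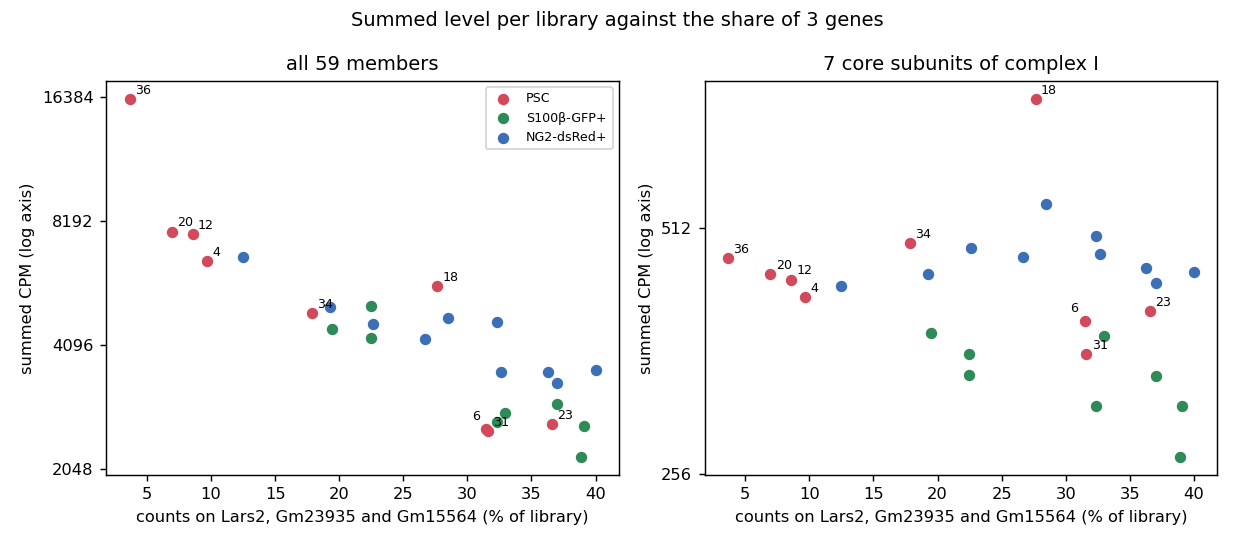
Summed CPM per library (log axis) of all 59 genes (left) and of the 7 core subunits of complex I (right) against the share of Lars2, Gm23935 and Gm15564 among all counts, each point 1 library, PSC libraries numbered. On the left the 4 PSC libraries under 10% lie at 6545 to 16249 CPM and the 3 over 30% at 2530 to 2631 CPM, while on the right PSC library 18 is highest at 738 CPM and the other 8 lie between 359 and 491 CPM.

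Transcript length was set beside these differences. Of the 58 genes, 31 have a principal transcript under 1000 bases, and 24 of these were higher in PSCs than S100β-GFP+ cells, at a median of 0.99 on the log2 scale, while of the 27 with longer transcripts 12 were higher, with a median of 0.39. Among all 798 tested protein-coding genes with a principal transcript under 1000 bases, a group added after seeing the data, 32.0% were higher, with a median of 0.32. Against NG2-dsRed+ cells 10 of the 31 were higher, beside 27.8% of the 798 genes, with medians of 0.73 for the 31 and 0.31 for the 798. Between S100β-GFP+ and NG2-dsRed+ cells 6 of the 31 were lower, beside 8.52% of the 798. Spearman's rho between transcript length and log2 fold change across the 58 genes, which are not independent replicates, was -0.50 against S100β-GFP+ cells, -0.52 against NG2-dsRed+ cells and -0.07 between S100β-GFP+ and NG2-dsRed+ cells.

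A fit with the share of the 3 genes as a term gave another picture of PSCs. Against S100β-GFP+ cells 9 genes were then higher and 5 lower, beside 21.8% and 24.7% of all genes, and the median log2 fold change was 0.21. Those still higher were the core subunits Ndufs8 (log2 fold change 0.85, adjusted p = 0.000196 in edgeR), Ndufv1 (0.65, adjusted p = 0.000151) and Ndufv2 (0.31, adjusted p = 0.049), Cyc1 (0.44), the assembly factors Ndufaf1, Ndufaf3 and Ndufaf4, and Ndufab1 and Ndufb11. Those lower were Ndufa4l2 (-1.12), Sdhd (-0.49) and Sdhb (-0.47), together with Ndufs4 and Ndufa3. None of the 5 largest increases was called, and 22 called other subunits of complex I became 2. Against NG2-dsRed+ cells 2 genes were higher (Ndufa4 and Ndufaf3) and 9 lower, beside 20.1% and 23.7% of all genes, with a median of -0.22. Between S100β-GFP+ and NG2-dsRed+ cells all 13 genes called lower remained so, among 19, and 0 were higher, beside 18.3% and 20.3% of all genes. The share itself differs between the cell types, and its own part in these differences was not tested apart from this fit.

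**Figure D4:**
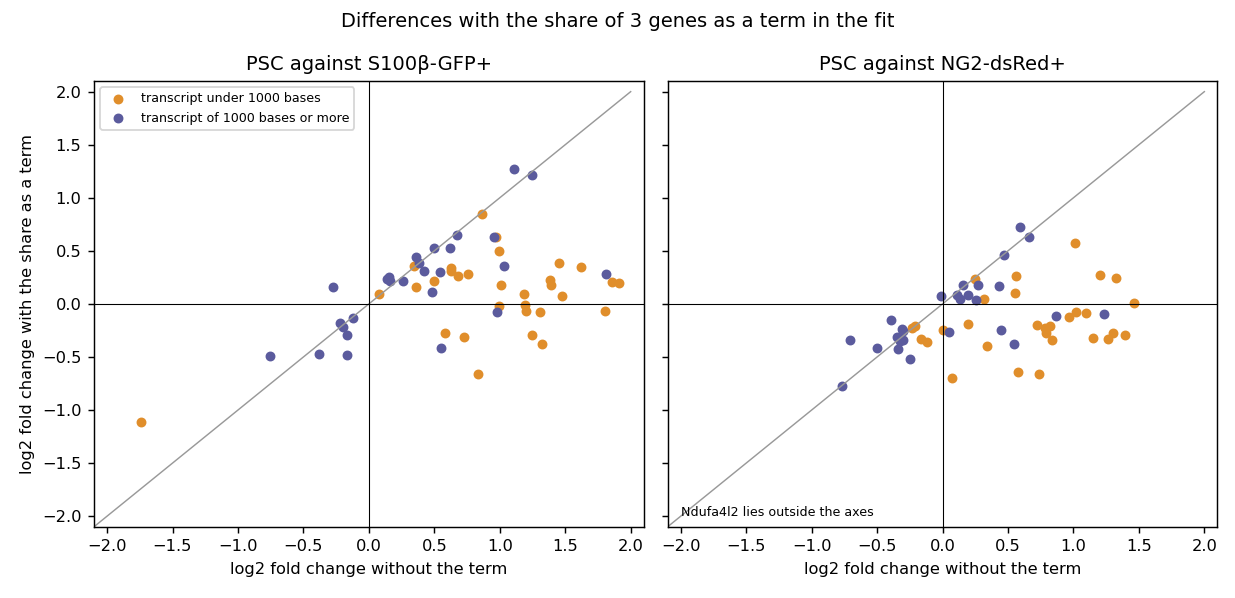
Log2 fold change of each of the 58 genes without (x axis) and with (y axis) the share of Lars2, Gm23935 and Gm15564 as a term, for PSCs against S100β-GFP+ cells (left) and against NG2-dsRed+ cells (right), orange for transcripts under 1000 bases and violet for longer ones. The median moves from 0.68 to 0.21 on the left and from 0.33 to -0.22 on the right, and Ndufa4l2 lies outside the axes on the right.

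Ndufa4 and Ndufa4l2 encode closely related proteins that were named for complex I, and Ndufa4 is now known as a subunit of complex IV. Ndufa4l2 ranged from 0.473 to 13.4 CPM with a median of 1.95 in PSCs, from 3.25 to 23.9 CPM with a median of 8.88 in S100β-GFP+ libraries and from 84.4 to 259 CPM with a median of 150 in NG2-dsRed+ libraries. Every NG2-dsRed+ library lay above every other library (every PSC library was below every NG2-dsRed+ library for 8.83% of all genes), and 7 of the 9 PSC libraries lay below every S100β-GFP+ library. The log2 fold changes were -5.62 (SE 0.53, adjusted p = 6.44e-10 in edgeR) for PSCs against NG2-dsRed+ cells, -3.88 (SE 0.51, adjusted p = 4.28e-07) for S100β-GFP+ against NG2-dsRed+ cells and -1.74 (SE 0.49, adjusted p = 0.00416) for PSCs against S100β-GFP+ cells. It was the only one of the 58 lower in PSCs than in each of the other cell types.

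Ndufa4 went the other way. It ranged from 79.1 to 411 CPM with a median of 127 in PSCs, from 66.2 to 113 CPM with a median of 81.3 in S100β-GFP+ libraries and from 62.0 to 96.1 CPM with a median of 69.8 in NG2-dsRed+ libraries. It was higher in PSCs than S100β-GFP+ cells by 0.76 on the log2 scale (SE 0.24, adjusted p = 0.00933 in edgeR) and than in NG2-dsRed+ cells by 1.01 (SE 0.22, adjusted p = 0.000456). With the share term these were 0.28 (adjusted p = 0.251, not called) and 0.58 (adjusted p = 0.0115). Per length of transcript, the level of Ndufa4l2 was 0.00117 to 0.0914 times that of Ndufa4 in PSCs, 0.0164 to 0.167 times in S100β-GFP+ and 0.499 to 2.37 times in NG2-dsRed+ libraries. For the 6 pericyte and smooth muscle markers other than Cspg4, the summed mean level in PSCs was 3.80% of that in NG2-dsRed+ cells. In S100β-GFP+ cells it was 7.12%, where Ndufa4l2 was at 2.11% and 6.86%. With Cspg4, the gene whose promoter drives dsRed, PSCs stood above S100β-GFP+ cells. All 7 markers then had mean sums of 1079 CPM in PSCs, 800 CPM in S100β-GFP+ and 10914 CPM in NG2-dsRed+ libraries. The part of pericyte RNA in the levels of Ndufa4l2 was not tested. Ndufa4l2 shares exonic sequence with Shmt2 on the opposite strand.

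**Figure D5:**
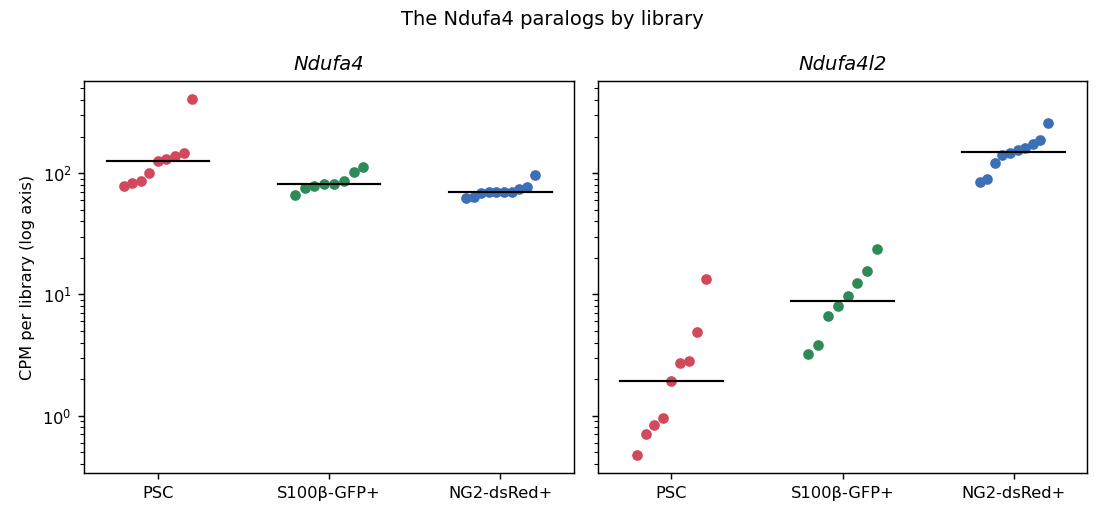
CPM of Ndufa4 (left) and Ndufa4l2 (right) in each library on 1 log axis, each point 1 library and the bars the medians. Ndufa4l2 lies between 84.4 and 259 CPM in NG2-dsRed+ libraries and at most 23.9 CPM elsewhere, while Ndufa4 lies between 62.0 and 411 CPM in all.

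Related genes were counted from lists for the same chain, beside 22.9% of all genes called higher and 24.1% lower in PSCs against S100β-GFP+ cells and 20.9% and 23.1% against NG2-dsRed+ cells. Of 16 complex IV genes, 7 were higher and 1 lower in PSCs than S100β-GFP+ cells, and 2 were higher and 2 lower than in NG2-dsRed+ cells (12.5% each way, below those shares). Cox4i2, the alternative form of subunit 4 and like Ndufa4l2 a gene known to respond to low oxygen, had a median of 0.947 CPM in PSCs, 1.84 CPM in S100β-GFP+ and 58.9 CPM in NG2-dsRed+ libraries (PSCs against NG2-dsRed+ log2 fold change -5.19, SE 0.59, adjusted p = 2.1e-08 in edgeR). Cox6a2, a muscle form of subunit 6a that is also among the muscle fibre markers, was higher in PSCs than in both (2.00 and 1.27 on the log2 scale). Of those 10 markers 2 were higher in PSCs than in each other cell type (Cox6a2 and Myh4), and the log2 fold changes of all 10 were positive.

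Of 18 complex V genes, 8 were higher and 0 lower in PSCs than S100β-GFP+ cells in edgeR. Against NG2-dsRed+ cells 3 were higher and 3 lower. DESeq2 called 9 higher and 1 lower against S100β-GFP+ cells and 6 higher and 3 lower against NG2-dsRed+ cells. With limma-voom these were 4 and 1, and 5 and 4. The 3 lower than in NG2-dsRed+ cells in edgeR included Atp5b, the catalytic beta subunit (-0.62). The 3 higher in edgeR included Atp5j2, a small membrane subunit (1.27). The 8 subunits of complexes I and III encoded in mitochondrial DNA gave 0 genes higher in PSCs than in S100β-GFP+ or NG2-dsRed+ cells in edgeR (1 and 2 at an unadjusted p under 0.05, 0 and 2 in DESeq2). Of them mt-Nd5 was lower than in S100β-GFP+ cells (-0.58, adjusted p = 0.0017 in edgeR).

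Of 21 further assembly factors of complexes I to III, 5 were higher and 2 lower in PSCs than S100β-GFP+ cells and 4 higher and 2 lower than in NG2-dsRed+ cells, so that the higher calls (23.8% and 19.0%) were near the shares over all genes. Bcs1l, which inserts the Rieske protein into complex III, was higher than in both (1.03 and 0.79 on the log2 scale), and the complex I factor Foxred1 was lower than in both (-0.72 and -0.84). Of 13 citric acid cycle enzymes, 0 were higher in PSCs than in either cell type in edgeR, at an unadjusted p under 0.05 and in DESeq2, while 2 were lower than in S100β-GFP+ and 7 lower than in NG2-dsRed+ cells, among them Suclg2 (-1.01), a subunit of a succinyl-CoA ligase, and the isocitrate dehydrogenase subunits Idh3a and Idh3g (-0.57 and -0.53). S100β-GFP+ cells also had 7 of the 13 lower than NG2-dsRed+ cells and 0 higher.

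Among 11 tested regulators of mitochondrial biogenesis, Ppargc1a, the coactivator PGC-1α, ranged from 10.2 to 27.1 CPM with a median of 17.3 in PSCs, from 0.222 to 5.60 CPM with a median of 1.54 in S100β-GFP+ and from 1.24 to 8.41 CPM with a median of 4.57 in NG2-dsRed+ libraries. Every PSC library lay above every other library, as held for 5.24% of all genes against S100β-GFP+ and 5.08% against NG2-dsRed+ cells. The log2 fold changes of PSCs were 3.11 (SE 0.39, adjusted p = 9.3e-08 in edgeR) against S100β-GFP+ and 1.93 (SE 0.33, adjusted p = 2.0e-05) against NG2-dsRed+ cells. Its relative Ppargc1b went the other way, at -1.63 and -3.89. Of the 11, 3 were higher and 2 lower in PSCs than S100β-GFP+ cells, and 1 was higher and 3 were lower than in NG2-dsRed+ cells, beside the shares over all genes given above.

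Levels of different genes were set side by side per length of transcript only. Uqcr11 had the highest mean level in PSCs (1056 CPM per kilobase) and NG2-dsRed+ cells (429) and in S100β-GFP+ cells (281). The next in order differed, with Uqcr10 (897) and Ndufa1 (556) in PSCs, Ndufa3 (268) and Uqcr10 (257) in S100β-GFP+ cells and Uqcr10 (341) and Ndufa3 (288) in NG2-dsRed+ cells. As the mean over the 3 cell types, in which PSCs weigh most for these genes, Uqcr11 reached 589 CPM per kilobase. On that mean the 6 core subunits tested lay between 16.0 (Ndufs1) and 81.9 (Ndufs7) CPM per kilobase and complex II between 17.8 (Sdhc) and 79.8 (Sdhb). Assembly factors lay between 4.40 (Ndufaf6) and 46.4 (Ndufaf2). The lowest of all were Uqcrc1 (1.51) and Ndufs3 (0.150).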

How the data were processed

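Values are the deposited counts per gene, whole numbers that were not normalized. Per the study's methods and the submitters' processing notes, the authors sequenced SMART-Seq v4 libraries from FACS-sorted cells, trimmed the reads, aligned them with HISAT2 to GRCm38 and counted genes with HTSeq. Tool versions, the annotation release and the strand setting are not stated in those sources, and counts of overlapping genes and of genes with near-identical pseudogenes are therefore uncertain. Reads carry no molecular identifiers. Symbols, positions and transcript lengths (APPRIS principal transcript) came from GENCODE M21.

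All 27 libraries entered 1 fit in edgeR 4.0.16 (R 4.3.3) with filterByExpr at a minimum count of 10, TMM scaling and the quasi-likelihood test, with Benjamini-Hochberg adjustment over all genes tested and a threshold of 0.05. DESeq2 1.42.0 and limma-voom (limma 3.58.1) were alternatives. The tests were tried on simulated data. The members and lists were chosen with earlier results of these data known. The rule for named genes took the core subunits of complex I, complex II, the main subunits of complex III, the Ndufa4 paralogs, the 5 called genes with the largest change in each direction of each comparison, untested genes and the 3 with the highest mean CPM. Other genes were named after their values were seen. Values of some genes are not reported here.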

Additional observations from a re-analysis of the deposited data

Results flagged for a closer look

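In 31 of 84 groups of libraries, taking the summed level and the named genes in each cell type, the highest library stood apart from the others by Dixon's criterion at the 95% level. Chance gives about 1 in 20 such groups where values are normally distributed. The criterion was applied to CPM without a log, and all 31 stood apart on the high side, so that rate need not hold here. Genes in 1 library are also not independent of each other.

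PSC library 36 stood highest in 11 groups. Its summed level was 16249 CPM, and its levels were 1519 CPM for Uqcr11, 1491 CPM for Uqcr10, 1002 CPM for Ndufa2, 933 CPM for Uqcrq, 769 CPM for Ndufa1, 703 CPM for Ndufc1 and 546 CPM for Ndufb2. It was also highest for Ndufa4 (411 CPM), Ndufc2 (142 CPM) and Ndufaf8 (114 CPM). NG2-dsRed+ library 28 stood highest in 7 groups, with a summed level of 6707 CPM, 510.0 CPM for Uqcr11, 257 CPM for Uqcrq, 254 CPM for Ndufa1, 136 CPM for Ndufb2, 96.1 CPM for Ndufa4 and 33.8 CPM for Ndufaf8. These libraries had the lowest share of Lars2, Gm23935 and Gm15564 among all counts of their cell type, 3.64% and 12.5%.

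PSC library 18 stood highest in 9 groups, with 175 CPM for Ndufs8, 172 CPM for Uqcrfs1, 160.1 CPM for Sdha, 151 CPM for Ndufs7, 142 CPM for Cyc1, 126 CPM for Sdhb, 86.7 CPM for Sdhd, 71.3 CPM for Sdhc and 5.78 CPM for Uqcrc1. It also had the highest summed level of muscle fibre markers among PSCs, 1321 CPM. The part of that RNA in these levels was not tested. PSC library 31 stood highest for Ndufa4l2 (13.4 CPM), S100β-GFP+ library 11 for Ndufs3 (0.138 CPM) and NG2-dsRed+ library 13 for Ndufv1 (91.7 CPM) and Ndufs8 (103 CPM).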

How the results depend on the processing

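No paired analysis was possible because the labels give each library its own number and tie no libraries to 1 mouse. With the share of Lars2, Gm23935 and Gm15564 as a term, 14 genes were called for PSCs against S100β-GFP+ cells (9 higher, 5 lower, median log2 fold change 0.21) and 11 against NG2-dsRed+ cells (2 higher, 9 lower, median -0.22). The sign changed for 13 of the 58 against S100β-GFP+ and 24 against NG2-dsRed+ cells. Of genes named by rule that were called without the term, Uqcr10 (-0.066), Ndufaf8 (-0.0060), Ndufa1 (-0.38) and Ndufa2 (-0.29) did so against S100β-GFP+ cells, and Uqcr11 (-0.27), Ndufb2 (-0.10), Uqcr10 (-0.30), Uqcrq (-0.083) and Ndufa1 (-0.33) against NG2-dsRed+ cells. Ndufa3 turned to a lower call against each, and Ndufa5 and Uqcrb against NG2-dsRed+ cells. The limma-voom fit called 26 genes for PSCs against S100β-GFP+ cells (22 higher, 4 lower) and 30 against NG2-dsRed+ cells (17 higher, 13 lower), and a fit of only the compared cell types called 23 for S100β-GFP+ against NG2-dsRed+ cells (all lower). Without S100β-GFP+ libraries 14, 17 and 22, 16 genes were called for PSCs against S100β-GFP+ cells and the median summed level of S100β-GFP+ libraries was 4274 CPM. With TMM scaling without the 3 genes the median summed level was 3960 CPM in S100β-GFP+ and 5909 CPM in NG2-dsRed+ libraries. The cause of these changes was not tested. Apart from the share term above, the shares of all genes called in these other fits are not given here. Leaving out 1 library at a time, calls ranged from 27 (without PSC library 36) to 40 (without PSC library 18) for PSCs against S100β-GFP+ cells, from 8 (without PSC library 36) to 32 (without PSC library 18) against NG2-dsRed+ cells, and from 10 (without S100β-GFP+ library 11) to 15 (without PSC library 36) for S100β-GFP+ against NG2-dsRed+ cells. DESeq2, its size factors in edgeR and both other filters on low counts kept each count of calls within 1.5 times. Counts of genes such as Ndufs3, under 1 CPM in every library, are too few for a comparison at this depth.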
